A study of Mus musculus with 8 samples.

Results

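Brain endothelial cell genes were examined in RNA of whole cortex from mice whose labels give Mef2c as heterozygous or as wild type. The set holds 35 named genes of endothelial cells and of the blood-brain barrier, out of 22000 gene rows in the count table. All 35 had a row, and all 35 were among the 13879 genes that passed the filter on low counts. The values were compared by genotype label, by sex and by the run of animal numbers in the sample titles.

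Endothelial cells line the blood vessels of the brain. There they are sealed to each other by tight junctions and carry few transport vesicles, so that nutrients, hormones and drugs cross mainly through dedicated carriers and pumps. Transcription factors of the ETS and SOX families set endothelial identity, and angiopoietin and TGF-beta family receptors on the cell surface regulate vessel growth and quiescence. In whole cortex these cells are a minority, so their transcripts are read against a large background of RNA from neurons and glia. In bulk tissue, fewer cells of a type and less RNA per cell cannot be told apart.

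Each genotype had 4 mice, 2 of them male and 2 female, with 1 poly-A selected library per mouse. Heterozygous replicates 3 (male) and 4 (female) and wild type replicates 3 (male) and 4 (female) carry the higher animal numbers in their titles and are called the second run. Heterozygous replicates 1 (male) and 2 (female) and wild type replicates 1 (female) and 2 (male) carry the lower numbers, set apart by a gap, and are called the first run. Each run therefore held 1 mouse of each sex and genotype, and the labels do not say what the runs stand for. The labels give neither the kind of Mef2c allele and the cells that carry it, nor the strain or the age of the mice, and all libraries share 1 protocol label.

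Total counts lay between 16092773 and 17841377 per library. RNA integrity numbers, a measure of RNA intactness, were 8.85 ± 0.173 in the second run and 8.78 ± 0.150 in the first (SD, n = 4 each). Mef2c itself, a MADS-box transcription factor, had 1233, 1336, 1391 and 1255 CPM (counts scaled to a common library total) in the libraries labelled heterozygous, replicates 1 to 4, against 1038, 939, 999 and 1003 CPM in those labelled wild type. It was thus higher, not lower, in every library labelled heterozygous, with a log2 fold change of 0.39 ± 0.05 (SE) and, from the quasi-likelihood test of edgeR, an adjusted p of 0.000154. Genotype directions below are therefore given for libraries as labelled. Between runs Mef2c differed by a log2 fold change of 0.03 ± 0.05 (adjusted p = 0.872).

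The defining markers of endothelium were present in all 8 libraries. Per exon length, the members ranged from 0.607 RPKM (CPM per kilobase of exon) for Icam2, an adhesion molecule that leukocytes bind, to 29.6 RPKM for Slc2a1, the glucose carrier GLUT1 of the barrier. The next highest were Itm2a, a surface protein of unsettled function in vessels, at 28.1 RPKM, Ly6c1, a lipid-anchored surface protein of brain capillaries, at 21.9 RPKM, and Cldn5, the main claudin of brain tight junctions, at 21.1 RPKM. Mean levels lay between 1.16 and 112 CPM with a median of 15.4 CPM, against a median of 26.7 CPM over all tested genes. The coefficient of variation over the 8 libraries had a median of 19.7% among the members, with a range from 8.82% for Itm2a to 41.2% for Icam2, and of 9.08% over all tested genes.

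Start-site sequence is shown for 3 of the 8 members that differed between runs, because the results below turn on them and their RefSeq start lies within 25 bases of the gene start in GENCODE. RefSeq windows (build GRCm38.p6, 250 bases before to 50 after a start) exist for 21 of the 35 members, too few for a comparison of base composition or motifs over the set. Each line gives the 120 bases just before the start, 5′ to 3′ on the strand of the gene. Capitals mark the ETS factor site spellings CAGGAAG and CCGGAAG, read on either strand. Other spellings around the shorter ETS core GGAA were not searched and are left unmarked.
Adgrf5 (chr17:43360311-43360430, plus strand): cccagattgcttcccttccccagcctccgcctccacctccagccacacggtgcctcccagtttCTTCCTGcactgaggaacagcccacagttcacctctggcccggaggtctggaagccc
Eng (chr2:32646475-32646594, plus strand): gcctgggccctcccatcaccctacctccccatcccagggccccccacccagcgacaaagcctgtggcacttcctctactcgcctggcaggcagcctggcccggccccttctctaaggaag
Ly6c1 (chr15:75048838-75048957, minus strand): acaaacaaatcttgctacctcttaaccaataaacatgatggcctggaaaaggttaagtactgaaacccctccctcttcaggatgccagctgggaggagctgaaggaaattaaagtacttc
The Adgrf5 stretch holds 1 match to these spellings, 57 to 51 bases before the start. The Eng and Ly6c1 stretches hold no match to them, though both contain an unmarked GGAA. A match to either spelling is present in 25.6% of the 13412 RefSeq windows of tested genes and in 20.9% of all 32851. Those windows span 300 bases, longer than the 120 bases shown, so the shares are not directly comparable. These matches are a description of the sequence only.

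The members differed between the runs of animal numbers and not detectably between the genotype labels. Of the 35 members, 8 were lower in the second run than in the first at an adjusted p under 0.05, and 0 were higher. Over all tested genes, 0.209% were called lower and 0.173% higher. The 8 called members are 27.6% of the 29 genes called lower in the second run. Because the members were chosen with earlier results of these data known, this share and those below are descriptions only. They are Adgrf5, Vwf, Ptprb, Abcb1a, Eng, Ly6c1, Slc2a1 and Pecam1, and by p-value Adgrf5, Vwf and Ptprb stood 5th, 11th and 14th among all tested genes. The median log2 fold change of the members, second minus first run, was -0.36, against 0.002 over all tested genes. Individual values ran from -0.97 for Icam2 to -0.00 for Cd34, so all 35 lay below 0. Cd34, a sialomucin of endothelium and blood progenitors, turned to at most 0.01 above 0 with upper-quartile scaling, no filter, a stricter filter, limma-voom or no covariate, which left 34 members below 0.

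Without an adjustment, 21 members had a p under 0.05, all of them lower in the second run, against 5.07% of all tested genes. In 13 members every library of the second run lay below every library of the first, 37.1% of the members against 2.9% of all tested genes. They comprise the 8 called members and Slco1c1, Ly6a, Tie1, Tm4sf1 and Icam2.

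**Figure D1:**
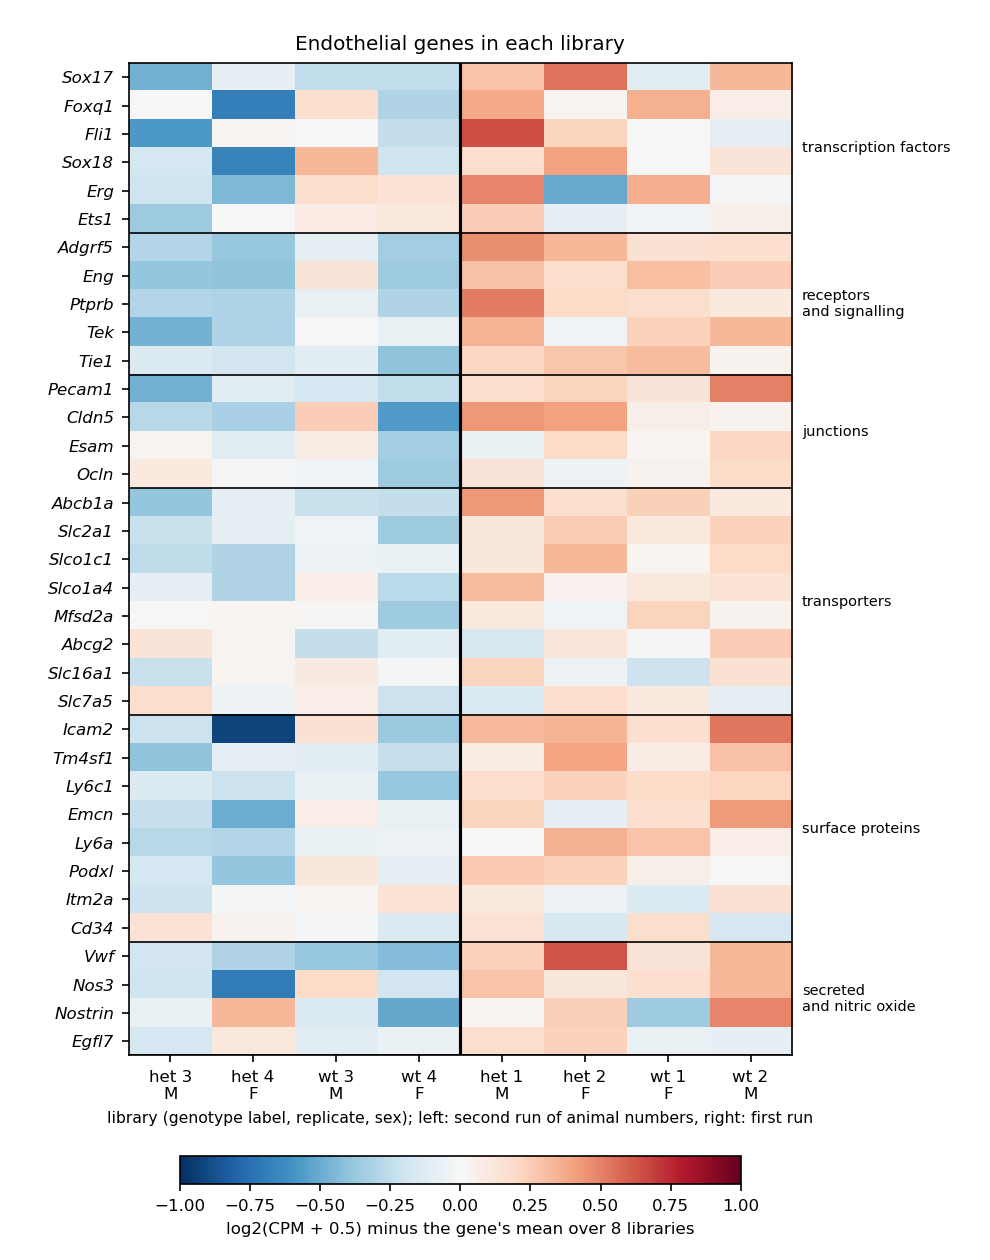
Level of each of the 35 endothelial genes in each library, as log2(CPM + 0.5) minus the gene's own mean over the 8 libraries (colour), with genes grouped by role and libraries of the second run of animal numbers left of those of the first. Most cells are blue on the left and red on the right, wild type replicate 3 is the palest column of the second run, and Slc7a5, Itm2a and Cd34 show little of the split, with log2 fold changes from -0.03 to -0.00.

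Receptors of the vessel wall showed the clearest difference. All 5 had an unadjusted p under 0.05, 3 of them were called, and their median log2 fold change was -0.50. Adgrf5 (chromosome 17, 43360451 to 43459557, plus strand), an adhesion G protein-coupled receptor of endothelium, had 28.9, 27.4, 33.2 and 27.9 CPM in the second run (heterozygous 3 and 4, then wild type 3 and 4). In the first run (heterozygous 1 and 2, then wild type 1 and 2, an order kept for other genes) it had 49.5, 45.0, 39.8 and 40.0 CPM. The highest library of the second run stayed below the lowest of the first. Means were 29.4 ± 2.65 and 43.6 ± 4.63 CPM (SD, n = 4 each), a log2 fold change of -0.57 ± 0.08 (SE) with an adjusted p of 0.000997.

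Ptprb (chromosome 10, 116275523 to 116389535, plus strand) encodes the phosphatase VE-PTP, which acts on the angiopoietin receptor Tie2 and on endothelial junctions. It had 26.0, 25.9, 30.4 and 25.9 CPM in the second run, against 45.9, 36.7, 36.3 and 34.4 CPM in the first, a log2 fold change of -0.50 ± 0.09 with an adjusted p of 0.00753. Heterozygous 1 stood above the other libraries of the first run, and wild type 3 above the others of the second, with no overlap between runs. Eng (chromosome 2, 32646595 to 32682669, plus strand), the TGF-beta family co-receptor endoglin, had 20.8, 20.5, 29.8 and 21.1 CPM in the second run, against 33.5, 30.8, 33.8 and 32.5 CPM in the first. Its log2 fold change was -0.51 ± 0.09 (adjusted p = 0.0111). Here wild type 3 lay just below the first run, while the other libraries of the second run lay close together and well under it. The gene Fpgs overlaps Eng on the opposite strand, and its own run difference was 0.37 ± 0.19 on the log2 scale at a mean of 4.42 CPM (adjusted p = 0.527), in the other direction.

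The angiopoietin receptors themselves were not called. Tek, which encodes Tie2, averaged 10.8 ± 1.66 CPM in the second run and 14.7 ± 1.83 CPM in the first (log2 fold change -0.45 ± 0.12, adjusted p = 0.109). Tie1, its co-receptor, had 7.77, 7.56, 8.02 and 6.42 CPM in the second run, against 10.1, 10.6, 10.9 and 8.87 CPM in the first (log2 fold change -0.44 ± 0.13, adjusted p = 0.19). The runs did not overlap for Tie1 and overlapped for Tek, where heterozygous 2 of the first run lay beneath wild type 3.

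Among the 4 junction genes 1 was called, and the median log2 fold change was -0.32. Pecam1 (chromosome 11, 106654217 to 106750628, minus strand), the endothelial adhesion molecule CD31, had 10.4, 13.7, 13.0 and 12.4 CPM in the second run, against 16.7, 17.3, 16.2 and 21.2 CPM in the first. The log2 fold change was -0.53 ± 0.12 with an adjusted p of 0.0437. The runs did not overlap, with wild type 2 highest and heterozygous 3 lowest. Cldn5 had 23.9, 23.2, 34.7 and 19.5 CPM in the second run, against 39.5, 38.6, 30.3 and 29.8 CPM in the first (log2 fold change -0.45 ± 0.17, adjusted p = 0.425). Wild type 3 broke the pattern here, with a level above both wild type libraries of the first run. The transmembrane tight junction protein gene Ocln and the adhesion molecule gene Esam had smaller differences, with log2 fold changes of -0.16 ± 0.14 and -0.18 ± 0.12, and overlapped between runs. Per exon length Ocln was the lowest of the group at 1.98 RPKM, and its 8 libraries lay between 6.36 and 9.50 CPM.

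Transporters split into 4 carriers and pumps with lower levels in the second run and 4 with small differences. Abcb1a (chromosome 5, 8660077 to 8748575, plus strand), the drug efflux pump P-glycoprotein, had 23.9, 29.4, 26.9 and 26.5 CPM in the second run, against 42.5, 35.3, 37.0 and 33.6 CPM in the first. Its log2 fold change was -0.47 ± 0.09 (adjusted p = 0.0111). All libraries of the second run were below those of the first. Its paralog Abcb1b averaged 2.63 CPM and had a log2 fold change of -0.47 ± 0.25 (adjusted p = 0.544).

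Slc2a1 (chromosome 4, 119108711 to 119137983, plus strand) had 87.9, 96.1, 100.3 and 80.2 CPM in the second run, against 111, 122, 111 and 121 CPM in the first. The log2 fold change was -0.35 ± 0.07 (adjusted p = 0.0134). This carrier is also made by astrocytes, in a less glycosylated form. The groups stood apart, with wild type 4 lowest. Slco1c1, the thyroxine carrier of the barrier, had 38.1, 36.9, 43.8 and 43.5 CPM in the second run, against 49.3, 57.6, 46.6 and 52.5 CPM in the first. Its adjusted p of 0.0502 lay just over the threshold, at a log2 fold change of -0.35 ± 0.08 and with no overlap between runs.

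Slco1a4, an organic anion carrier, averaged 43.1 ± 5.34 CPM in the second run and 52.9 ± 4.40 CPM in the first (log2 fold change -0.30 ± 0.07, adjusted p = 0.0561). Its runs overlapped, because wild type 3 at 49.95 CPM lay above heterozygous 2 at 49.1 CPM. The remaining carriers had log2 fold changes of -0.16 ± 0.09 for Mfsd2a, which imports lysophospholipids and restrains vesicle transport, -0.10 ± 0.11 for the efflux pump gene Abcg2, -0.06 ± 0.09 for the lactate carrier gene Slc16a1 and -0.01 ± 0.09 for the amino acid carrier gene Slc7a5. Each of these overlapped between runs. Abcg2 was the lowest transporter per exon length at 2.22 RPKM, with 19.6, 18.4, 15.2 and 16.6 CPM in the second run, against 15.99, 19.6, 17.7 and 21.4 CPM in the first.

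Surface proteins had 1 call in 8, and 6 of the 8 had an unadjusted p under 0.05. Ly6c1 (chromosome 15, 75044018 to 75048830, minus strand) had 33.1, 31.3, 34.5 and 27.9 CPM in the second run, against 41.1, 42.7, 41.4 and 42.4 CPM in the first. The log2 fold change was -0.40 ± 0.08 (adjusted p = 0.0119). The first run was tight, with an SD of 0.756 CPM, and every library of the second lay well below it. The paralog Ly6c2 averaged 0.241 CPM.

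Ly6a, the surface antigen Sca-1, had 12.5, 12.3, 14.6 and 14.6 CPM in the second run, against 15.2, 19.6, 18.6 and 15.95 CPM in the first (log2 fold change -0.36 ± 0.11, adjusted p = 0.18). Tm4sf1, a membrane protein of endothelial projections, had 4.66, 5.88, 5.84 and 5.33 CPM, against 6.69, 8.47, 6.69 and 7.89 CPM in the first run (log2 fold change -0.45 ± 0.16, adjusted p = 0.269). In both genes the runs stood apart without an overlap. Icam2 had 0.870, 0.336, 1.26 and 0.727 CPM in the second run, against 1.48, 1.51, 1.28 and 1.79 CPM in the first. It had the lowest counts of the set and the widest error, with a log2 fold change of -0.97 ± 0.36 (adjusted p = 0.314), and wild type 3 lay just below the first run.

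The sialomucin genes Emcn and Podxl had log2 fold changes of -0.40 ± 0.16 and -0.27 ± 0.10 and overlapped between runs. Itm2a, the highest surface gene per exon length, showed no such difference. It had 42.3, 48.3, 49.8 and 53.6 CPM in the second run, against 52.1, 46.9, 44.4 and 54.2 CPM in the first (log2 fold change -0.03 ± 0.08, adjusted p = 0.948).

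Among secreted and nitric oxide pathway genes, Vwf had the lowest ratio between runs of the 8 called members. Vwf (chromosome 6, 125546774 to 125686679, plus strand) encodes von Willebrand factor, which tethers platelets. It had 11.99, 11.1, 10.5 and 10.1 CPM in the second run, against 16.2, 21.6, 15.1 and 17.4 CPM in the first. The mean was 38.0% lower in the second run, with a log2 fold change of -0.69 ± 0.12 (adjusted p = 0.00422). For this gene wild type 3 was not raised within its run. Nos3, the endothelial nitric oxide synthase, averaged 6.68 ± 1.77 CPM in the second run and 9.09 ± 0.661 CPM in the first (log2 fold change -0.47 ± 0.14, adjusted p = 0.196). Nostrin, which regulates the trafficking of that synthase, and Egfl7, a secreted vessel protein, had -0.24 ± 0.25 and -0.13 ± 0.09 on the same scale and overlapped between runs. Egfl7 was the highest of this group per exon length at 5.90 RPKM, and Vwf the lowest at 0.887 RPKM.

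None of the 6 transcription factor genes was called, with 2 at an unadjusted p under 0.05 and a median log2 fold change of -0.40. Sox17, an arterial and barrier regulator, averaged 4.15 ± 0.523 CPM in the second run and 6.26 ± 1.22 CPM in the first (log2 fold change -0.59 ± 0.19, adjusted p = 0.206). Sox18, the highest of the group per exon length at 5.24 RPKM, had 7.27, 5.04, 10.5 and 7.15 CPM in the second run, against 9.42, 11.1, 8.32 and 9.10 CPM in the first (log2 fold change -0.36 ± 0.17, adjusted p = 0.47). Wild type 3 lay above 3 of the libraries of the first run.

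Foxq1, a forkhead factor and the lowest of the group at 0.674 RPKM, had 3.17, 1.79, 3.61 and 2.48 CPM in the second run, against 4.27, 3.25, 4.19 and 3.34 CPM in the first. The ETS family genes Fli1, Erg and Ets1 had log2 fold changes of -0.43 ± 0.22, -0.23 ± 0.22 and -0.09 ± 0.13. All 6 factor genes overlapped between runs, and 4 of them averaged under 5 CPM over the libraries of the second run.

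**Figure D2:**
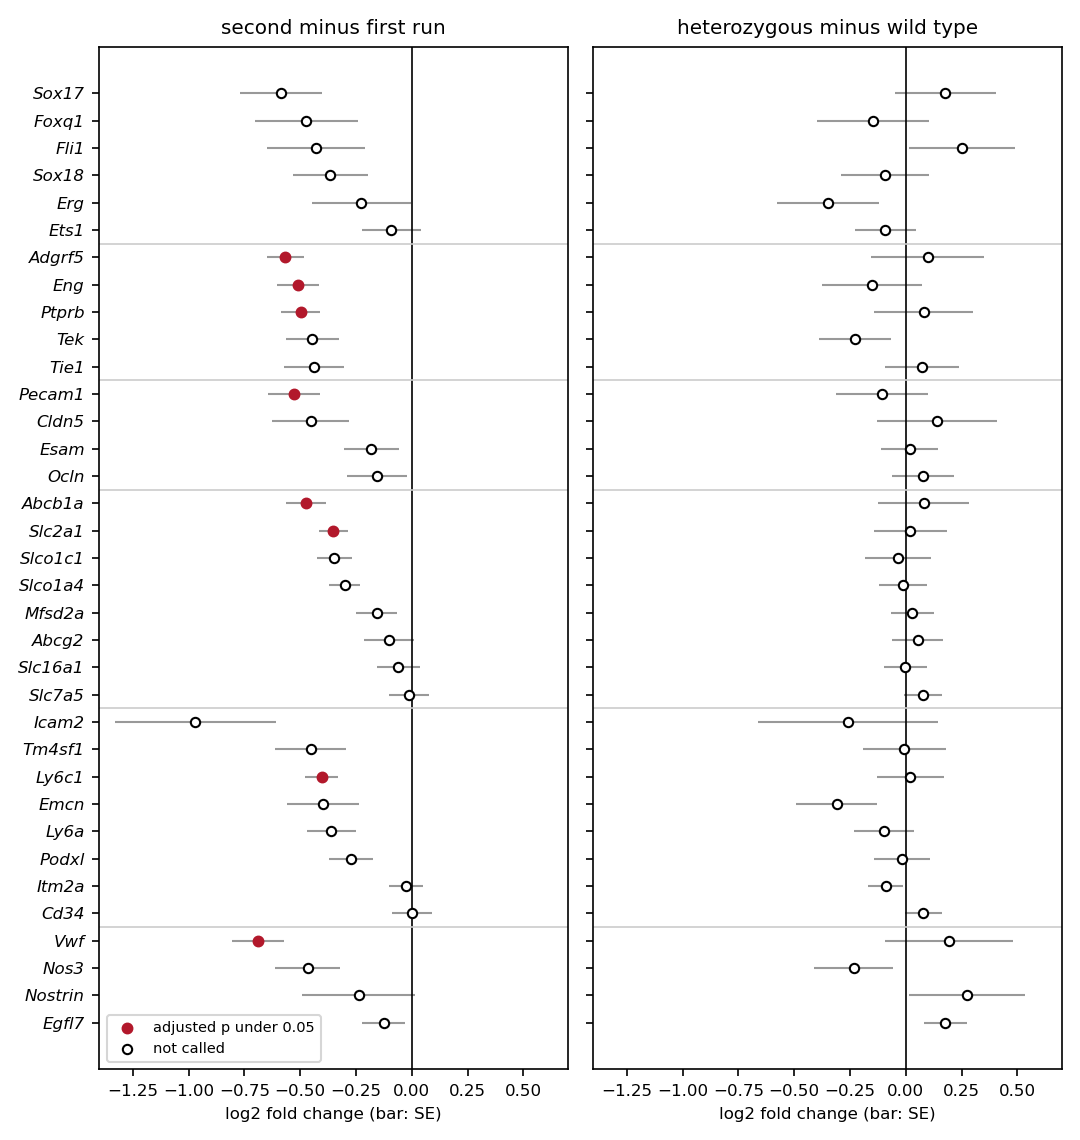
log2 fold change with its standard error (bar) for each endothelial gene between runs of animal numbers (left) and between genotype labels (right), grouped by role in the same order as in the colour plot. All 35 run values lie at or below 0, with the 8 called genes as filled red points, whereas the genotype values scatter from -0.35 to 0.27 around 0 with none called.

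The difference between runs was seen in the set as a sum as well. Summed over the 35 members, the libraries of the second run held 813, 806, 887 and 767 CPM, against 1019, 989, 960 and 963 CPM in the first. The 2 runs did not overlap, with means of 818 ± 50.1 and 983 ± 27.3 CPM (SD, n = 4 each). Wild type 3 was closest to the first run.

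Counted by gene, 6, 7, 17 and 3 of the 35 members lay above their own mean over the 8 libraries in the second run, against 31, 26, 28 and 29 in the first. Over all tested genes that share lay between 50.2% and 51.5% in every library. Within the second run, wild type 3 had the highest value in 19 of the 35 members (54.3%), while over all tested genes it was the highest of that run in 24.1%. Across all 8 libraries the lowest value of a member lay in heterozygous 3, heterozygous 4 or wild type 4 for 10, 12 and 10 members, and in wild type 3 for 1 member.

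**Figure D3:**
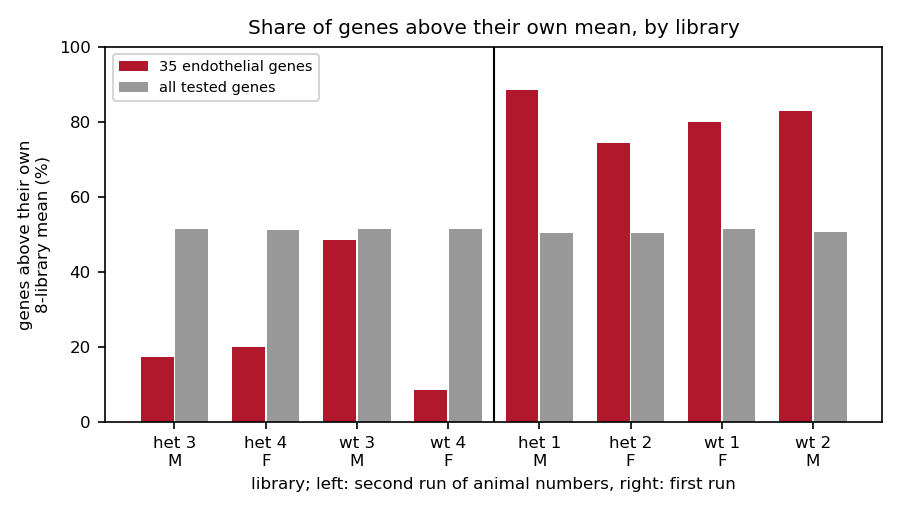
Share of the 35 endothelial genes (red) and of all tested genes (grey) that lie above their own 8-library mean, in each library, with the second run of animal numbers left of the first. The grey bars stay near 50.2% to 51.5%, and the red bars are lower than the grey in the 4 libraries of the second run and higher in the 4 of the first.

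How firmly each call held was examined by leaving out 1 library at a time. The count of 8 called members became 2 without heterozygous 3 or heterozygous 4, 4 without heterozygous 1, heterozygous 2 or wild type 4, 7 without wild type 2, and 9 without wild type 1 or wild type 3. Adgrf5 was called in all 8 of these fits and Vwf in 7. Abcb1a and Ptprb were called in 5, Ly6c1 and Slc2a1 in 4, Eng in 3 and Pecam1 in 1. The median over the members stayed between -0.43 and -0.33. Between 30 members, without heterozygous 1, and 34 lay below 0 in these fits.

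**Figure D4:**
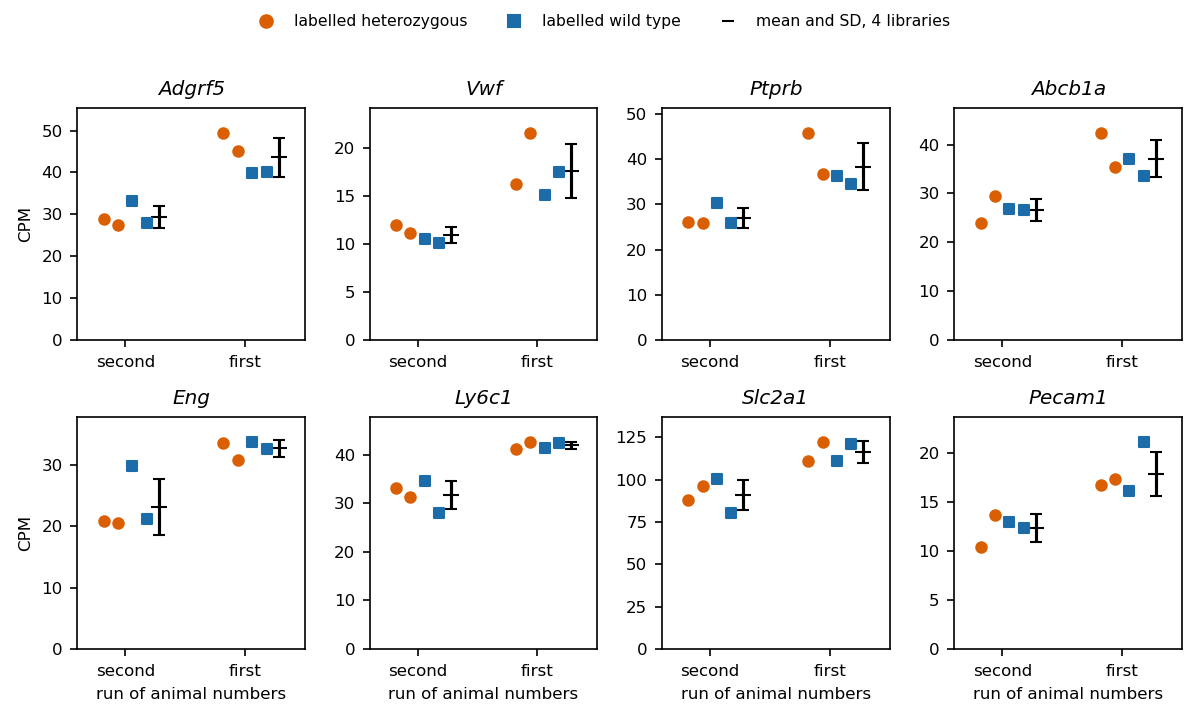
CPM of the 8 endothelial genes called lower in the second run of animal numbers, by library, with heterozygous libraries as circles, wild type libraries as squares, and the mean and SD of each run. The runs do not overlap in any of the 8 genes, and wild type replicate 3 is the highest of its run for Adgrf5, Ptprb, Eng, Ly6c1 and Slc2a1.

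By genotype label, 0 of the 35 members was called by edgeR, by the DESeq2 Wald test or by limma-voom, and 0 had an unadjusted p under 0.05 in edgeR. Over all tested genes 0.267% were called and 7.24% had an unadjusted p under 0.05. No member separated the genotypes without an overlap, against 4.55% of all tested genes. Log2 fold changes, heterozygous minus wild type, had a median of 0.02 and lay between -0.35 for Erg and 0.27 for Nostrin, with 18 above 0 and 17 below. With the run added to the model, the median standard error of the members shrank to 0.116 against 0.165 without it. In that fit 0 members were called and 0 had an unadjusted p under 0.05. Of all 13879 tested genes, 72 were called and 8.56% had such a p.

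The smallest genotype p among the members belonged to Egfl7, Emcn and Erg. Egfl7 averaged 22.4 ± 2.71 CPM in libraries labelled heterozygous and 19.8 ± 0.281 CPM in those labelled wild type (SD, n = 4 each), a log2 fold change of 0.18 ± 0.10 with an adjusted p of 0.768. Its heterozygous libraries had 23.8, 24.7, 18.6 and 22.6 CPM and its wild type libraries 19.96, 19.8, 19.4 and 20.1 CPM, in replicate order. Heterozygous 3 lay below all the wild type values and the others above them. The log2 fold change was 0.12 without heterozygous 1, and 0.05 in the second run and 0.28 in the first taken alone.

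Emcn, endomucin of capillary and venous endothelium, averaged 5.01 ± 1.16 CPM in heterozygous and 6.19 ± 0.992 CPM in wild type libraries (log2 fold change -0.31 ± 0.18, adjusted p = 0.804). Its heterozygous libraries had 6.52, 5.16, 4.60 and 3.75 CPM, against 6.23, 7.54, 5.79 and 5.21 CPM in wild type libraries. Erg, an ETS factor that maintains endothelial identity, averaged 3.67 ± 1.46 CPM in heterozygous and 4.58 ± 0.544 CPM in wild type libraries (log2 fold change -0.35 ± 0.23, adjusted p = 0.857). Its heterozygous libraries had 5.81, 2.67, 3.42 and 2.80 CPM, against 5.30, 3.97, 4.58 and 4.48 CPM. In both genes the genotypes overlapped, since heterozygous 1 stood among or above the wild type libraries. The Erg value rested on single libraries, at -0.63 without heterozygous 1, -0.23 without heterozygous 2 and -0.21 without wild type 1.

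The genotype difference was also looked at within each run, where each side is 2 libraries. The median difference of mean log2(CPM + 0.5), heterozygous minus wild type, was -0.11 in the second run, with 12 members above 0. In the first run it was 0.01, with 21 above 0. The test of that difference, a genotype by run term in edgeR, called 0 members, as did the DESeq2 Wald test and limma-voom, and 0.00721% of all tested genes. Without an adjustment 5 members had a p under 0.05, all of them with a lower genotype difference in the second run, against 2.1% of all tested genes. Podxl, podocalyxin of the luminal surface, had 23.9 and 20.7 CPM in heterozygous and 29.3 and 25.5 CPM in wild type libraries of the second run, and 32.5 and 31.9 against 28.2 and 27.0 CPM in the first. Its interaction term was -0.52 ± 0.17 on the log2 scale (adjusted p = 0.944). For Sox18 the term was -0.77 ± 0.30 and for Adgrf5 -0.36 ± 0.15, both with an adjusted p of 0.999 (Sox18 -0.44 without heterozygous 2), and Slco1c1 and Cldn5 were the other two. None of these is a call.

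Males and females did not separate either. In edgeR 0 members were called by sex and 0 had an unadjusted p under 0.05, against 0.0288% and 2.92% of all tested genes. The DESeq2 Wald test and limma-voom also called 0. The median log2 fold change, male minus female, was 0.08, with 25 members above 0. Slco1a4 had the smallest p, with 51.5 ± 6.02 CPM in males and 44.5 ± 6.56 CPM in females (SD, n = 4 each) and a log2 fold change of 0.21 ± 0.11. Nos3 and Emcn followed with 0.30 ± 0.18 and 0.27 ± 0.18, and all 3 had an adjusted p of 1.00 after rounding. Single libraries moved these values: without heterozygous 1 they were 0.12 for Slco1a4, 0.19 for Nos3 and 0.16 for Emcn, and without heterozygous 4 they were 0.14, 0.15 and 0.18. Without heterozygous 2 the Nos3 value was 0.48.

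Other endothelial and barrier genes were read from further lists, of which the angiopoietin list shares Tek, Tie1 and Ptprb with the members. Of 23 other pan-endothelial genes tested, 17 were below 0 in the run comparison, with a median log2 fold change of -0.37. At an unadjusted p under 0.05 in edgeR, 11 were lower and 2 higher, against 5.07% lower and 709 of 13879 higher over all tested genes. In 4 of the 23 every library of the second run lay below every library of the first, against 2.9% of all tested genes. The summed level of the list overlapped between runs, at 721 to 767 CPM in the second and 739 to 800 CPM in the first. One of them was called lower: Adgrl4, an adhesion receptor of growing vessels, had 15.3, 16.4, 19.6 and 15.8 CPM in the second run, against 27.4, 23.7, 22.3 and 23.2 CPM in the first (log2 fold change -0.52 ± 0.10, adjusted p = 0.0139). S1pr1, the sphingosine-1-phosphate receptor, which astrocytes also express, was called higher (0.27 ± 0.06, adjusted p = 0.0487). Among all tested genes the shares called were 0.209% lower and 0.173% higher. The defining markers Cdh5, Kdr and Flt1, which encode VE-cadherin and 2 VEGF receptors, had -0.42 ± 0.13, -0.37 ± 0.15 and -0.43 ± 0.10, and none of the 3 was called.

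Median run differences of the other lists are given as a description, without a test between lists. They were -0.06 over 16 other barrier transporters, -0.11 over 11 other tight and adherens junction genes, -0.03 over 17 genes of the barrier Wnt pathway, -0.02 over 9 genes of endothelial TGF-beta and BMP signalling, and -0.17 over 6 caveola genes. They were -0.14 over 13 arterial, -0.00 over 6 venous and -0.02 over 5 fenestrated endothelium genes, 0.06 over 5 endothelial activation genes and -0.25 over 13 other endothelial transcription factors. No gene of these 10 lists was called between runs. Without an adjustment, genes lower at a p under 0.05 were 2 of the transporters, 3 of the junction, 2 of the Wnt, 1 of the TGF-beta and BMP, 2 of the caveola, 3 of the arterial, 1 of the activation and 3 of the transcription factor genes, and 0 of the venous and fenestrated genes. Genes higher at such a p were 1 of the transporters, 2 of the Wnt and 1 of the arterial genes, and none of the rest. Over all tested genes 5.07% were lower at such a p, and 709 of 13879 were higher. The angiopoietin list, 6 of whose genes were tested, had a median of -0.29, and its 1 call is Ptprb, which is also a member. Many genes of these lists are made by other cortical cells too.

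By genotype label no gene of any of these lists was called. Genotype medians were 0.20 for arterial, 0.23 for TGF-beta and BMP, 0.10 for venous and -0.18 for fenestrated genes. The other lists lay between -0.07 and 0.12. Arterial sums were 214 to 225 CPM in heterozygous and 189 to 205 CPM in wild type libraries. Other sums overlapped. Genotypes did not overlap in 2 of 13 arterial genes, both higher in heterozygous libraries (all tested genes 4.55%). The same held for 1 pan-endothelial gene, and 1 caveola and 1 fenestrated gene were lower. In the lists without a call between runs, the smallest genotype p belonged to Wnt7b, a Wnt ligand that drives barrier formation (0.34 ± 0.09, adjusted p = 0.13), Efnb2, the arterial ephrin ligand (0.24 ± 0.06, adjusted p = 0.13), and Prkcdbp, a caveola coat gene (-0.38 ± 0.11, adjusted p = 0.203). For Bmp6, a BMP ligand, the log2 fold change was 0.48 ± 0.16 (adjusted p = 0.32). The other lists had Cgn, Slc38a5, Mcam, Foxc1, Foxo1 and, for both the venous and the activation list, Ackr1, with values between -0.62 and 0.35 and adjusted p from 0.504 to 0.878.

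**Figure D5:**
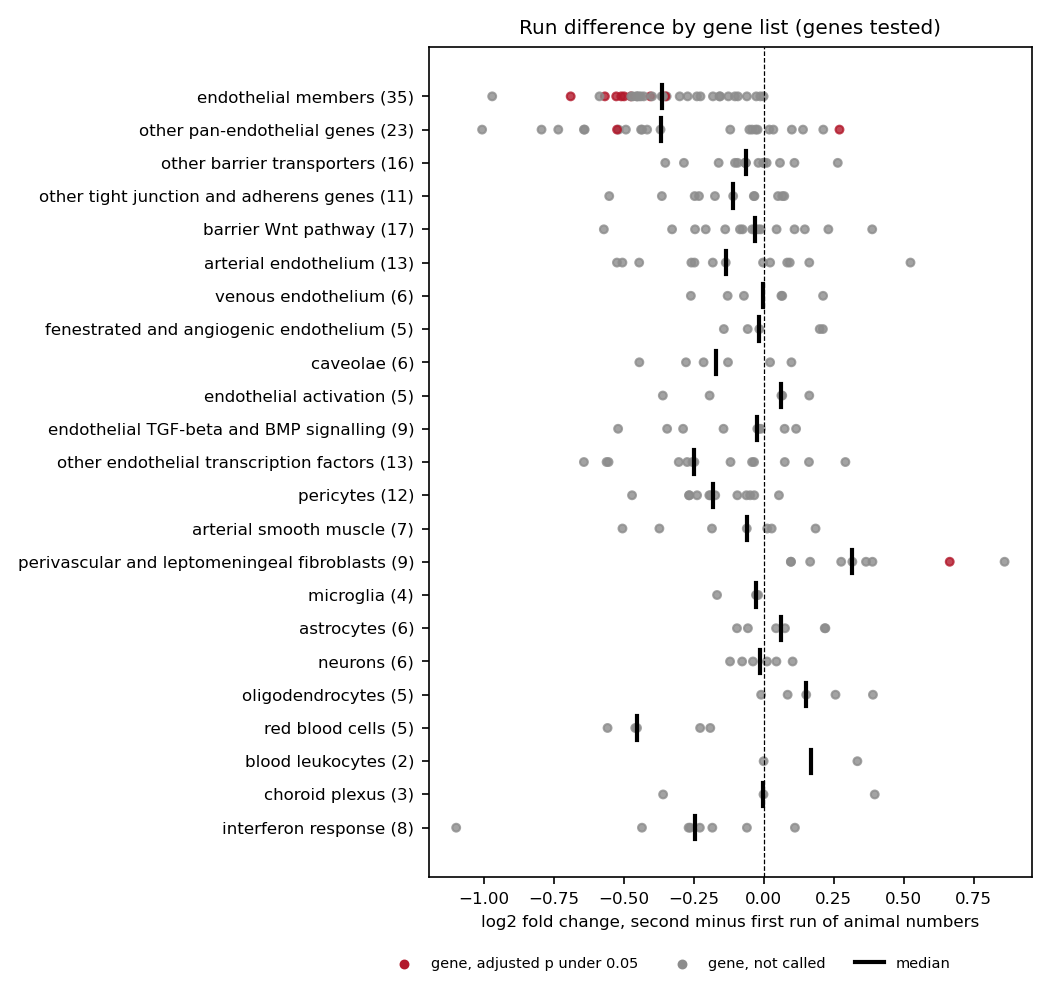
log2 fold change between runs of animal numbers for each tested gene (points) of the endothelial set and of 22 other lists, with the number of genes tested in parentheses and the median of each list as a bar. The endothelial set and the other pan-endothelial genes have medians of -0.36 and -0.37, fibroblast genes lie to the right of 0, and neuronal genes lie around 0.

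Markers of other cells and of blood were set beside the run difference. Of 12 pericyte genes 11 were below 0, with a median of -0.18 and none called, and their summed level was 237 to 253 CPM in the second run, against 261 to 290 CPM in the first. The pericyte sums did not overlap between runs. Single pericyte genes ran from -0.47 to 0.05, with Pdgfrb at -0.03. Of 5 red blood cell genes all were below 0, with a median of -0.45 and none called, and their summed level was 35.2 to 73.7 CPM in the second run, against 63.9 to 112 CPM in the first. By genotype label and by sex the 5 genes also lay on one side of 0, below it in heterozygous minus wild type (median -0.40, 2 with an unadjusted p under 0.05) and above it in male minus female (median 0.45, 2 with an unadjusted p under 0.05), while 1 had such a p between runs. None was called in any of these comparisons. In the second run the red cell sums were 57.8 and 35.2 CPM in heterozygous 3 and 4, and 73.7 and 71.1 CPM in wild type 3 and 4. In the same order, the sums over the endothelial members were 813, 806, 887 and 767 CPM. In the first run the red cell sums were 74.7 and 71.5 CPM in heterozygous 1 and 2, and 63.9 and 112 CPM in wild type 1 and 2. The endothelial sums of those libraries were 1019, 989, 960 and 963 CPM. Of 8 interferon response genes 7 were below 0, with a median of -0.25 and none called, and sums of 96.7 to 109 CPM in the second run, against 112 to 127 CPM in the first.

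Genes of perivascular and leptomeningeal fibroblasts went the other way. All 9 were above 0, with a median of 0.32, and Slc13a4, a sulfate carrier of the meninges, was called higher (0.66 ± 0.15, adjusted p = 0.0452). Their summed level was 70.9 to 82.6 CPM in the second run, against 51.5 to 83.8 CPM in the first, so the runs overlapped through heterozygous 2. Median differences were -0.06 for 7 arterial smooth muscle genes, -0.01 for 6 neuronal, 0.06 for 6 astrocyte, 0.15 for 5 oligodendrocyte, -0.03 for 4 microglial and -0.00 for 3 choroid plexus genes, none of them called. Of 7 blood leukocyte genes 2 passed the filter. By genotype label no gene of these lists was called, and the gene with the smallest p in each (Rgs5, Tpm2, Ogn, Csf1r, Gfap, Gad1, Mag, Hbb-bt, Ptprc, Kl and Rsad2) had a log2 fold change between -0.93 for Hbb-bt and 0.56 for Kl, with adjusted p from 0.158 to 0.965. The part of any of these cells in the endothelial difference between runs was not tested.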

How the data were processed

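The files hold raw counts of reads, 1 row per gene symbol, for whole cortex of 8 mice, as deposited by the authors. The submitters' processing notes name STAR 2.5.2b, HTSeq and, as genome build, mm10. The sources used here give no annotation and no strand setting, so reads of genes that overlap on opposite strands cannot be told apart. Of the members, Egfl7, Slc2a1, Abcb1a, Eng, Sox17, Cd34, Foxq1 and Nos3 have such a partner.

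Low counts were filtered by genotype with filterByExpr of edgeR (minimum count 10), leaving 13879 genes that hold 99.95% of all reads, and TMM scaling followed. Genes were tested by quasi-likelihood F-test in edgeR 4.0.16 under R 4.3.3 (robust fit), with Benjamini-Hochberg adjustment over all tested genes, and called under 0.05. Sex was a covariate for genotype, sex and genotype for run, genotype for sex, and all 3 for the genotype by run term. CPM use TMM-scaled totals, and RPKM use exon lengths of GENCODE M21 (GRCm38), which also gave coordinates. The script was tested on simulated data.

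Libraries were separate mice per the labels, and none of the pairs within a genotype agreed within sampling noise (lowest chi-square per degree of freedom 4.12). The members and lists were chosen with earlier results of these data known. Named members are those called, those whose groups did not overlap, the 3 with the smallest p in a comparison, and the highest and lowest per length of a role group. Others are accounted for by their fold change. From each other list the called genes or else the 1 with the smallest genotype p are named. Alternatives were size factors of DESeq2 1.42.0, upper-quartile scaling, no filter, a filter of 1 CPM in at least 4 libraries, limma-voom (limma 3.58.1), the Wald test of DESeq2, other covariates, each run alone, and each library left out.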

Additional observations from a re-analysis of the deposited data

Results flagged for a closer look

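A single library stood apart within its group of 4 in 3 of 140 groups of members examined (35 members by genotype label and by run), judged by its gap to the nearest library over the whole range of the group. Chance flags about 1 in 20 groups. Eng was 29.8 CPM in wild type 3, against 20.5 to 21.1 CPM in the rest of the second run. Ptprb was 30.4 CPM in wild type 3, against 25.9 to 26.0 CPM in the rest of the second run. Mfsd2a was 25.1 CPM in wild type 4, against 32.2 to 32.6 CPM in the rest of the second run. What sets these libraries apart was not tested.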

How the results depend on the processing

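For the endothelial members, 0 calls by genotype, by sex and by the genotype by run term held under every alternative run, and the run median stayed between -0.43 and -0.33. The count of 8 members called between runs was 7 to 10 under other scalings, filters, tests and covariates, and 2 to 9 with 1 library left out (2 without heterozygous 3 or 4). The genotype median, 0.02 and not tested, moved between -0.11 and 0.07 and was below 0 without heterozygous 1 (-0.07), heterozygous 2 (-0.08) or wild type 4 (-0.06) and in the second run alone (-0.11). The sex median moved between -0.00 (without heterozygous 1) and 0.18. Members with small run differences, such as Cd34, Slc7a5, Itm2a and Ets1, lay above 0 in some alternatives. Counts over all genes moved more. By genotype label 37 genes became 82 with no filter, 80 with the DESeq2 Wald test and 72 with run as a further covariate, and 19 to 80 with 1 library left out (19 without wild type 2, 80 without heterozygous 1). Between runs 53 genes became 95 with no filter, 32 with no covariate, and 11 to 77 with 1 library left out (11 without heterozygous 4, 77 without wild type 1). For sex, 4 genes became 2 to 6 with 1 library left out (2 without wild type 3). For the genotype by run term, 1 gene became 14 with no filter, 4 with the DESeq2 Wald test and 0 to 7 with 1 library left out. Among Mef2c and the named members no called value changed sign, and the other called genes were not checked for this. The cause of the shifts in these counts was not tested. No paired analysis was run, because the labels name no pairs of mice. Each sex within each run held 1 mouse of each genotype, and the fit with sex and run as terms called 0 members by genotype. With 4 libraries a group and a median of 15.4 CPM, members such as Icam2, Foxq1 and Nostrin have wide errors.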
